A study of Mus musculus with 2 samples.

Results

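T cells whose counts held interferon gamma transcripts were compared with T cells whose counts held interleukin 17 transcripts. A T cell was a cell with at least 1 UMI (a unique molecular identifier, which counts 1 captured transcript) of the CD3 chains Cd3d, Cd3e or Cd3g and at least 1 UMI of the receptor constant regions Trac or Trdc. Ifng-positive T cells held at least 1 Ifng UMI and no Il17a or Il17f UMI. Il17-positive T cells held at least 1 Il17a or Il17f UMI and no Ifng UMI. Of 7177 kept cells 1591 were T cells by this rule, and of these 220 were Ifng-positive and 101 were Il17-positive. Another 19 held both kinds of cytokine transcript, and 1251 held none of the 3 and are called cytokine-negative. These sides were chosen by the measured cytokine counts themselves. Male C57BL/6 mice aged 18 months gave the cells, which were isolated from the lamina propria of the small intestine. They had been sorted as group 3 innate lymphoid cells (ILC3s), which lack antigen receptors, and sequenced as single cells on the BD Rhapsody system. The 2 samples, replicates 1 and 2, form 1 group, and the labels give no genotype and do not say whether they are separate animals. The study is about the chromatin factor Cxxc1 in ageing ILC3s, and every cell described here is from these aged mice.

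Interferon gamma is the signature cytokine of type 1 lymphocytes, is driven by the transcription factor T-bet (Tbx21) and by interleukin 12, and activates macrophages. Interleukins 17A and 17F are the signature of type 17 lymphocytes, depend on interleukin 23, and recruit neutrophils and sustain the epithelial barrier. In the gut wall both cytokines are made by alpha beta T cells, which use the Trac chain, and by gamma delta T cells, which use the Trdc chain, and ILC3s make interleukin 17 as well.

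The 250 bases before the start of each of the 3 cytokine genes that set the sides are shown as the stretch just before the annotated start of their transcripts. They were taken from RefSeq on GRCm38.p6 and are written 5′ to 3′ in the direction of the gene. Capitals mark the letters TATAAA of a TATA box, AGGTCA of the half-site that nuclear receptors bind, and TCACAC of a T-box half-site, searched on both strands. The Ifng window lies at chr10:118440796-118441045 on the plus strand, that of Il17a at chr1:20730655-20730904 on the plus strand and that of Il17f at chr1:20784271-20784520 on the minus strand. In GENCODE M21 the Il17f gene spans 20777146 to 20790617, so its window lies inside that longer gene model.
Ifng: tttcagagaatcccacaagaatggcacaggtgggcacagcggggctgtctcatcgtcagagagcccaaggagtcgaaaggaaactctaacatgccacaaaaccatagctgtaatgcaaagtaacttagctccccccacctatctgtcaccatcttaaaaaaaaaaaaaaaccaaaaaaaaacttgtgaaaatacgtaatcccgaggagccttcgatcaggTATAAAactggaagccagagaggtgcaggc
Il17a: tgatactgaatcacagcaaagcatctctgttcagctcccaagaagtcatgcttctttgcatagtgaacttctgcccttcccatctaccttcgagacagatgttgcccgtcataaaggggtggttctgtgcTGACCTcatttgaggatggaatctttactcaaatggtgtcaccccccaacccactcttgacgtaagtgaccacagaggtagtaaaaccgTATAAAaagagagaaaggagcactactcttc
Il17f: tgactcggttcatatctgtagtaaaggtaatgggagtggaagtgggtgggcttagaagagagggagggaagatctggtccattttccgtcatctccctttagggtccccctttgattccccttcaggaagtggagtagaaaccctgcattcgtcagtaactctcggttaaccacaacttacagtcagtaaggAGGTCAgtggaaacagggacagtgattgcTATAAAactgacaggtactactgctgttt
All 3 windows held TATAAA on the strand of the gene, starting 30 bases before the start in Ifng, 31 in Il17a and 29 in Il17f, and 12.4% of all 32851 promoter windows of this length held it on either strand. AGGTCA was in the Il17f window 58 bases before the start, and its reverse complement TGACCT was in the Il17a window 120 bases before the start. It was not in the Ifng window, and 14.0% of all windows held it. TCACAC was in none of the 3 windows and in 12.3% of all. The marked letters do not overlap, and a match of letters shows no bound factor.

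The own-tag cells held 7011649 UMIs in replicate 1 and 6845914 in replicate 2. Ifng-positive T cells had a median of 2323 and 1841 UMIs per cell in replicates 1 and 2, Il17-positive T cells 2287 and 2157, and cytokine-negative T cells 2004.5 and 1782. The summed counts behind each comparison were 317277 and 198608 UMIs for Ifng-positive, 110060 and 134422 for Il17-positive and 1513940 and 1102295 for cytokine-negative T cells. The replicates differed in free or foreign RNA: a UMI of the light chain gene Igkc, a B cell transcript, was in 41.5% and 5.15% of Ifng-positive cells, 43.2% and 5.26% of Il17-positive cells and 34.4% and 4.80% of cytokine-negative cells of replicates 1 and 2. The libraries shared 10 cell indices among the cells of their own tags.

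Ifng-positive cells made up 14.6% of the T cells in replicate 1 (123 of 840, exact Clopper-Pearson 95% interval 12.3 to 17.2) and 12.9% in replicate 2 (97 of 751, 10.6 to 15.5). Il17-positive cells made up 5.24% (44 cells, 3.83 to 6.97) and 7.59% (57 cells, 5.80 to 9.72). In both replicates the Ifng-positive side was the larger, and these intervals cover counting error only. Cells with both cytokines were 5 and 14, which is 3.91% and 12.6% of the T cells with an Ifng UMI and 10.2% and 19.7% of those with an Il17a or Il17f UMI.

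Both sides rest on few cytokine molecules. A single Ifng UMI put 78 of 123 cells (63.4%) and 69 of 97 cells (71.1%) on the Ifng-positive side, and the highest cell held 8 and 11 UMIs in replicates 1 and 2. On the Il17-positive side 21 of 44 cells (47.7%) and 34 of 57 cells (59.6%) held 1 UMI of Il17a and Il17f together, and the highest cell held 37 and 10. Il17a gave 108 and 85 UMIs there and Il17f 70 and 29. Il17a alone was seen in 28 and 39 of these cells, Il17f alone in 13 and 14, and both in 3 and 4. Cells with 1 UMI lie just inside the rule, and the cytokine-negative cells with 0 lie just outside it. These values chose the cells and are given as a description.

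Cytokine UMIs were also present in cells outside the T cell rule. An Ifng UMI was in 15.2% and 14.8% of all T cells, against 4.93% and 5.18% of the other kept cells and 2.53% (2 of 79, 0.308 to 8.85) of fibroblast-like cells in replicate 1, which should lack the gene. An Il17a or Il17f UMI was in 5.83% and 9.45% of all T cells, against 5.69% and 5.76% of the other kept cells, which come from the same ILC3 sort, and 2.53% (2 of 79) of the fibroblast-like cells. The median depth of the fibroblast-like cells was 2080 UMIs, close to that of the T cells, and replicate 2 had only 6 such cells, with neither cytokine. The interval of the fibroblast share reaches the Il17 share of T cells in replicate 1. For Ifng it goes up to 8.85%, below the 15.2% of T cells in replicate 1. The 6 cells of replicate 2 set no useful limit for either cytokine. Carried-over cytokine transcripts therefore cannot be told apart from expressed ones in single cells of the Il17-positive side, nor in single cells of the Ifng-positive side.

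Most cells of both sides held Trac transcripts. Trac without Trdc was found in 112 of 123 and 87 of 97 Ifng-positive cells, and in 37 of 44 and 41 of 57 Il17-positive cells. A Trdc UMI was in 8.94% and 10.3% of Ifng-positive cells of replicates 1 and 2, in 15.9% and 28.1% of Il17-positive cells and in 21.1% and 22.0% of cytokine-negative cells. The Trdc share of the Ifng-positive side lay below that of the other sides in both replicates. With each cell thinned to 1000 UMIs it was 6.56% and 4.17% of Ifng-positive, 6.82% and 19.3% of Il17-positive and 18.7% and 17.3% of cytokine-negative cells, so the gap to the Il17-positive side then stood in replicate 2 alone. A Trdc UMI was in 3.80% (3 of 79) of the fibroblast-like cells of replicate 1. Thinning left out 1 and 1 Ifng-positive, 0 and 0 Il17-positive and 15 and 21 cytokine-negative cells.

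A UMI of Cd8a or Cd8b1, which encode the CD8 co-receptor of cytotoxic T cells, was in 25.2% and 8.25% of Ifng-positive cells, 9.09% and 8.77% of Il17-positive cells and 13.0% and 5.66% of cytokine-negative cells. The high share was in replicate 1 alone. Thinned, the shares were 18.9% and 5.21% of Ifng-positive cells, 6.82% and 0% of Il17-positive cells (0 of 57, which allows a share of up to 5.26%) and 9.49% and 3.38% of cytokine-negative cells. A Cd4 UMI was in 15.4% and 6.19% of Ifng-positive cells, 15.9% and 3.51% of Il17-positive cells and 12.7% and 7.89% of cytokine-negative cells. In the fibroblast-like cells of replicate 1 a Cd4 UMI and a Cd8a or Cd8b1 UMI were each in 2.53% (2 of 79, 0.308 to 8.85). The 6 fibroblast-like cells of replicate 2 set no useful limit, so the Cd4 and CD8 shares of replicate 2 cannot be told apart from background. No Cd4, Cd8a or Cd8b1 UMI was seen in 74 of 123 and 84 of 97 Ifng-positive cells and in 33 of 44 and 50 of 57 Il17-positive cells.

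**Figure D1:**
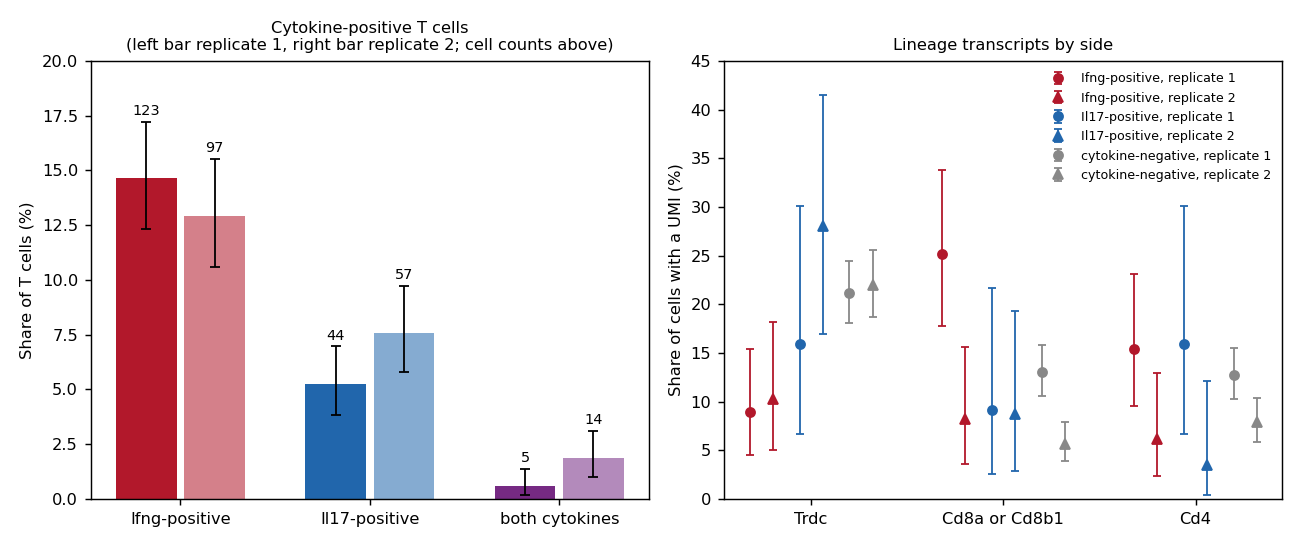
Left, share of T cells (%) that were Ifng-positive, Il17-positive or held both cytokines in replicates 1 and 2, with cell counts above the bars. Right, share of cells (%) with a Trdc, Cd8a or Cd8b1, or Cd4 UMI in Ifng-positive, Il17-positive and cytokine-negative T cells; error bars in both panels are exact 95% binomial intervals. The Ifng-positive side holds 123 and 97 cells against 44 and 57, and its CD8 share is 25.2% in replicate 1 and 8.25% in replicate 2.

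The comparison asked how T cells in which Ifng was detected differ in the rest of their transcripts from T cells in which Il17a or Il17f was detected. Ifng-positive cells had more transcripts of cytotoxic granule genes (Gzmb, Nkg7, Ctsw), of the chemokine Ccl5 and of the surface protein Cd7. They had fewer of Cd163l1, a scavenger receptor of gamma delta T cells, and of the receptor signalling adaptor Sla. Of 4165 genes tested with edgeR's quasi-likelihood test, 16 (0.384%) were higher and 3 (0.072%) were lower in Ifng-positive than in Il17-positive cells at an adjusted p under 0.05, with the replicate as a block. At an unadjusted p under 0.05 there were 188 and 160, or 4.51% and 3.84%. The median log2 ratio of all genes tested was 0.00, and the 8 genes of the rule were left out of the tests. Without the replicate block the same test called 0 genes in either direction (92 and 58 at an unadjusted p under 0.05), and DESeq2 called 2 higher, Ccl5 and Gzmb, and 0 lower.

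**Figure D2:**
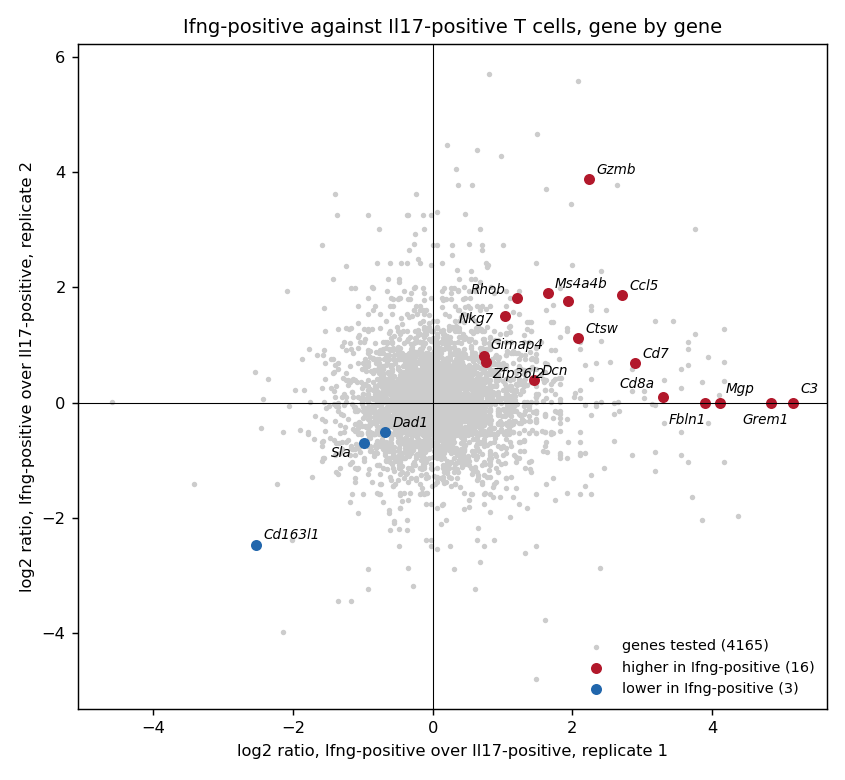
Log2 ratio of Ifng-positive over Il17-positive T cells in replicate 1 (horizontal axis) and replicate 2 (vertical axis) for the 4165 genes tested (grey), with the 16 genes higher (red) and the 3 lower (blue) in Ifng-positive cells. Gzmb, Ccl5, Nkg7, Ctsw and Cd163l1 lie off 0 on both axes, while Mgp, Fbln1, C3 and Grem1 lie at 0 in replicate 2 and Cd8a at 0.10.

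Levels are given in CPM, the UMIs of a gene per 1000000 UMIs of a replicate's side. Whether the values of the sides overlap is given as a description only. The genes it is given for were picked for passing with the same sign in both replicates. Overlap was not counted over all genes tested. Ccl5, a chemokine of effector and memory T cells that recruits further T cells (GRCm38, GENCODE M21, chromosome 11, 83525778 to 83530518, minus strand), stood at 1024 and 227 CPM in Ifng-positive cells of replicates 1 and 2, against 154 and 59.5 CPM in Il17-positive cells. In each replicate the Ifng-positive side was the higher (log2 ratio 2.49 ± 0.30 SE, adjusted p = 0.00011). It rested on 325 and 45 UMIs in 34 and 8 Ifng-positive cells, with up to 69 and 20 in 1 cell, and on 17 and 8 UMIs in 7 and 2 Il17-positive cells. Capped at 3 UMIs per cell and gene, the ratio was 1.23 (adjusted p = 0.11), and without the cells with a Cd8a or Cd8b1 UMI it was 1.43 (adjusted p = 0.36).

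Gzmb encodes the granule protease granzyme B, which starts apoptosis in target cells (chromosome 14, 56258838 to 56262260, minus strand). It stood at 564 and 378 CPM in Ifng-positive cells and at 118 and 22.3 CPM in Il17-positive cells (2.86 ± 0.48, adjusted p = 0.045). The groups did not overlap, and the UMIs came from 19 and 10 Ifng-positive cells and 3 and 3 Il17-positive cells, with up to 45 and 24 in 1 Ifng-positive cell. Capped at 3 UMIs per cell and gene the ratio was 1.69 (adjusted p = 0.11). Without the cells with a Cd8a or Cd8b1 UMI the Gzmb ratio was 2.77 (adjusted p = 0.36). Nkg7, a granule membrane protein needed for degranulation (chromosome 7, 43437073 to 43438249, plus strand), was spread over more cells. It stood at 485 and 347 CPM in Ifng-positive cells, against 236 and 119 CPM in Il17-positive cells, again without overlap (1.26 ± 0.24, adjusted p = 0.0016). A Nkg7 UMI was in 62.6% and 46.4% of Ifng-positive cells, 40.9% and 19.3% of Il17-positive cells and 17.7% of the fibroblast-like cells of replicate 1. Capped, the Nkg7 ratio was 1.18 (adjusted p = 0.0017), and without the cells with a CD8 UMI it was 1.38 (adjusted p = 0.037).

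Ctsw, a cathepsin of cytotoxic lymphocytes, stood at 202 and 166 CPM in Ifng-positive cells and at 45.4 and 74.4 CPM in Il17-positive cells (1.59 ± 0.38, adjusted p = 0.026). It passed with the cap at 3 UMIs per cell and gene but not without the cells with a Cd8a or Cd8b1 UMI. Of the 18 genes of the cytotoxic granule list 12 passed the filter on low counts, and 3 of these, Gzmb, Nkg7 and Ctsw, were higher in Ifng-positive cells and 0 lower. The median log2 ratio of the 12 was 0.68, against 0.00 over all genes tested. Of all genes tested 0.384% were higher and 0.072% lower. Gzma, another granzyme, had a ratio of 2.89 but did not pass (adjusted p = 0.19), on 100 and 33 UMIs in Ifng-positive and 8 and 0 in Il17-positive cells. It passed in 6 of 17 alternatives, cells thinned to 1000 UMIs, cells with at least 2 cytokine UMIs and Trdc cells among them, and its ratio was positive in all 17. Gzma did not pass with DESeq2 or with the cap at 3 UMIs per cell and gene. Nor did it pass without the cells with a Cd8a or Cd8b1 UMI or in Trac cells without Trdc. The granzyme B inhibitor Serpinb9 (0.61) and the death ligand Fasl (0.96) did not pass either. The pore protein Prf1 was below the filter.

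Cd7, a surface protein of T and NK cells, stood at 359 and 50.3 CPM in Ifng-positive cells and at 45.4 and 29.8 CPM in Il17-positive cells (2.38 ± 0.47, adjusted p = 0.0091). The ratio of replicate 1 was 2.90 on the log2 scale and that of replicate 2 was 0.69, and Ifng-positive cells of replicate 2 held 10 UMIs. Without the cells with a Cd8a or Cd8b1 UMI the Cd7 ratio was 1.82 (adjusted p = 0.36). Ms4a4b, a membrane protein that modulates T cell activation, stood at 233 and 65.5 CPM in Ifng-positive and at 72.7 and 14.9 CPM in Il17-positive cells, so the sides overlapped across replicates (1.82 ± 0.45, adjusted p = 0.045). Rhob, a small GTPase, stood at 359 and 141 CPM in Ifng-positive and at 154 and 37.2 CPM in Il17-positive cells (1.43 ± 0.33, adjusted p = 0.022), also with overlap. The lymphocyte survival GTPase Gimap4 (0.77 ± 0.19, adjusted p = 0.045) and the RNA-binding protein Zfp36l2, which destabilises AU-rich transcripts (0.73 ± 0.17, adjusted p = 0.023), were higher by less. Il12rb2, the signalling chain of the interleukin 12 receptor, had 64 and 28 UMIs in Ifng-positive cells and 7 and 1 in Il17-positive cells, and its ratio of 2.43 ± 0.57 did not pass (adjusted p = 0.068). It passed in 5 of 16 alternatives, the cap at 3 UMIs per cell and gene among them (adjusted p = 0.0017).

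Among genes lower in Ifng-positive cells, Cd163l1 stood out in size. It encodes a scavenger receptor, also called Scart1, that marks interleukin 17 committed gamma delta T cells (chromosome 7, 140218267 to 140231145, plus strand). It stood at 22.1 and 40.3 CPM in Ifng-positive cells, against 145 and 238 CPM in Il17-positive cells, without overlap (-2.75 ± 0.43, adjusted p = 0.00011). Cells with a Trdc UMI held all of it on both sides: 7 and 8 UMIs in Ifng-positive and 16 and 32 in Il17-positive cells, while cells with Trac and no Trdc held 0 in each replicate and side. Its UMIs came from only 2 and 2 Ifng-positive and 4 and 9 Il17-positive cells. Within Trdc cells, of which there were 11 and 10 on the Ifng-positive and 7 and 16 on the Il17-positive side, the ratio was -1.83 (adjusted p = 0.0011).

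Sla, an adaptor that damps T cell receptor signalling, stood at 375 and 302 CPM in Ifng-positive and at 754 and 491 CPM in Il17-positive cells (-0.87 ± 0.17, adjusted p = 0.0042). Dad1, a subunit of the oligosaccharyl transferase, stood at 511 and 559 CPM in Ifng-positive and at 827 and 796 CPM in Il17-positive cells (-0.61 ± 0.15, adjusted p = 0.045). Neither gene's groups overlapped. The genes next in order of p did not pass: the gamma chain constant region Tcrg-C1 (-0.60, adjusted p = 0.075), the chemokine receptor Cxcr6 (-0.45, adjusted p = 0.13), the prostaglandin synthase Ptgs2 (-2.58, adjusted p = 0.14), the innate-like T cell factor PLZF, Zbtb16 (-0.94, adjusted p = 0.16), and the interleukin 1 receptor Il1r1 (-0.78, adjusted p = 0.17). Ptgs2 passed in 5 of 16 alternatives, with cells thinned to 1000 UMIs and in Trac cells without Trdc among others, but not with the cap at 3 UMIs per cell and gene. Its 45 and 24 UMIs in Il17-positive cells of replicates 1 and 2 came from 5 and 8 cells, with up to 27 and 6 in 1 cell.

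**Figure D3:**
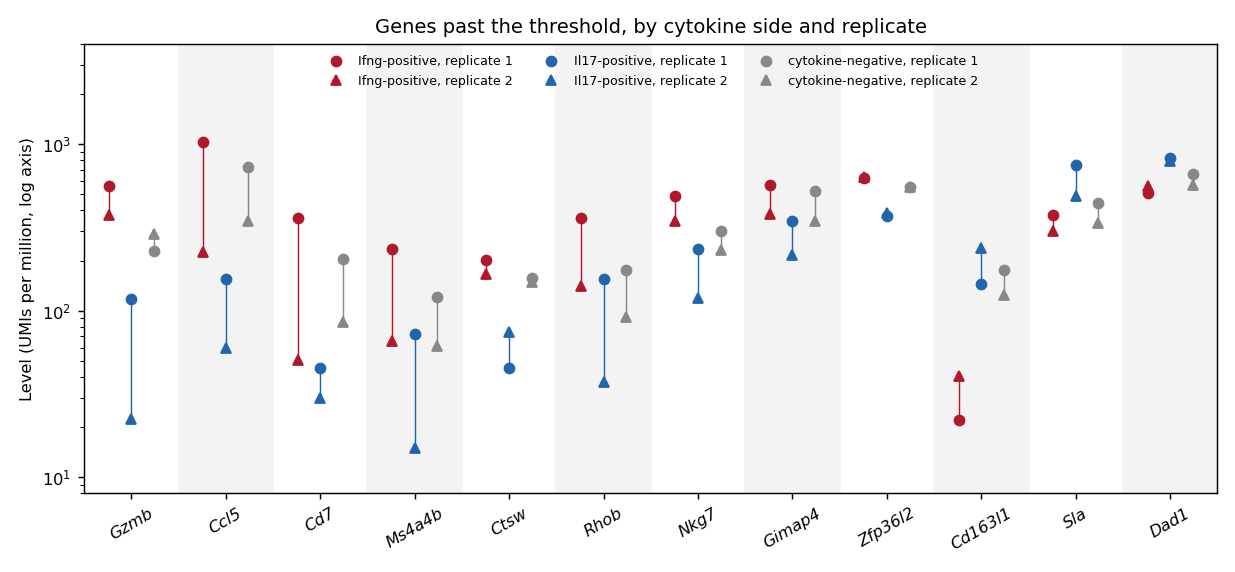
Level in CPM (log axis) of 12 named genes past the threshold in Ifng-positive, Il17-positive and cytokine-negative T cells; circles are replicate 1, triangles replicate 2. Gzmb, Ccl5, Ctsw and Nkg7 lie higher in Ifng-positive than in Il17-positive cells in both replicates, Ccl5 at 1024 and 227 against 154 and 59.5, and Cd163l1 lies lower at 22.1 and 40.3 against 145 and 238.

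The type 1 regulator Tbx21 did not pass the test. It had 24 and 5 UMIs in Ifng-positive and 5 and 4 in Il17-positive cells (0.51 ± 0.57, adjusted p = 0.88). A Tbx21 UMI was in 13.8% and 5.15% of Ifng-positive and 9.09% and 7.02% of Il17-positive cells, and in 11.4% (9 of 79) of the fibroblast-like cells of replicate 1. In replicate 1 the transcript could not be told apart from background on either side. The 6 fibroblast-like cells of replicate 2, of which 1 held a Tbx21 UMI, set no useful limit there. Deeper transcripts also failed to pass, with a log2 ratio of -0.02 ± 0.10 for Rora (adjusted p = 0.98) and 0.10 ± 0.13 for Maf (adjusted p = 0.91), both factors of type 17 cells.

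Of the 20 genes of the type 1 programme 17 passed the filter on low counts. Of these 1 was higher in Ifng-positive cells and 0 were lower, with a median log2 ratio of 0.15. Over all genes tested 0.384% were higher and 0.072% lower. The interleukin 12 signal transducer Stat4 (0.07), the shared type 1 factor Runx3 (0.15), the interleukin 18 receptor chains Il18r1 (0.17) and Il18rap (0.76) and the chemokine receptor Cxcr3 (0.31) did not pass. Of the 26 genes of the type 17 programme 22 passed the filter. Cd163l1 was lower in Ifng-positive cells and 0 were higher, with a median of -0.34, and 5 of the 22 ratios were positive. The tyrosine kinase Blk (-1.07), the neuropeptide receptor chain Ramp1 (-1.13) and the interleukin 23 receptor Il23r (0.49 ± 0.37, adjusted p = 0.82) did not pass. In cells with Trac and no Trdc, Blk had 18 and 42 UMIs in Ifng-positive and 29 and 33 in Il17-positive cells. In Trdc cells it had 5 and 10 in Ifng-positive and 2 and 16 in Il17-positive cells. Blk passed in 3 of 17 alternatives, among them the cap at 3 UMIs per cell and gene.

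Other effector cytokines did not pass between the sides. Il22, a cytokine that induces antimicrobial proteins in epithelium, was at 529.5 and 850.9 CPM in Ifng-positive and at 1272 and 840.6 CPM in Il17-positive cells (-0.63 ± 0.30, adjusted p = 0.68), with up to 55 and 80 UMIs in 1 Ifng-positive and 48 and 47 in 1 Il17-positive cell. An Il22 UMI was in 33.3% and 21.6% of Ifng-positive cells and 34.1% and 29.8% of Il17-positive cells. In replicate 1 it was in 48.1% (38 of 79) of the fibroblast-like cells, so the shares of that replicate are at background. The 6 fibroblast-like cells of replicate 2, of which 2 held an Il22 UMI, set no useful limit there. Il22 was lower in Ifng-positive cells in 2 of 17 alternatives, among Trac cells without Trdc (-1.06, adjusted p = 0.0070) and with only the sums of both cytokine sides in the fit (-0.63, adjusted p = 0.020). Csf2, encoding GM-CSF, had a ratio of -0.22 ± 0.41 (adjusted p = 0.95) and Tnf one of -0.04 ± 0.38 (adjusted p = 0.99). In all, 0 of the 13 genes tested of 26 other cytokines passed in either direction, against 0.456% of all genes tested. Of 12 chemokine ligands 6 were tested, Ccl5 was higher and 0 were lower, and the ratios of Xcl1 (3.11, adjusted p = 0.85) and Ccl4 (3.36, adjusted p = 0.86) did not pass. Capped at 3 UMIs per cell and gene, Xcl1 passed with a ratio of 2.43 (adjusted p = 0.020). Of 29 killer lectin and NK receptor genes 8 were tested and 0 passed (median 0.59).

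The lists of general activation, metabolism and surface receptors held 0 or 1 called gene each. Over all 4165 genes tested 0.384% were higher and 0.072% lower, so such counts in lists this small do not set these groups apart. Of 36 immediate early and feedback genes 32 were tested, with Zfp36l2 higher and 0 lower (median 0.05). Of the 11 heat shock genes tested (median 0.02), 24 interferon response genes (0.05), 10 cytokine receptors (0.04), 13 glycolysis genes (-0.12), 19 oxidative phosphorylation genes (-0.03), 7 proliferation genes (0.28), 14 ribosomal protein genes (0.04) and 15 lineage transcription factors (-0.06), 0 passed in either direction. Of 22 checkpoint and costimulatory genes 9 were tested and Cd7 was higher (median 0.43), and the costimulatory receptor Cd28 did not pass (1.09, adjusted p = 0.12). Of 26 chemokine receptor and homing genes 14 were tested, with 1 higher and 0 lower (median 0.08). Of 24 T cell lineage and receptor genes 17 were tested, with Cd8a higher and 0 lower (median 0.01).

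**Figure D4:**
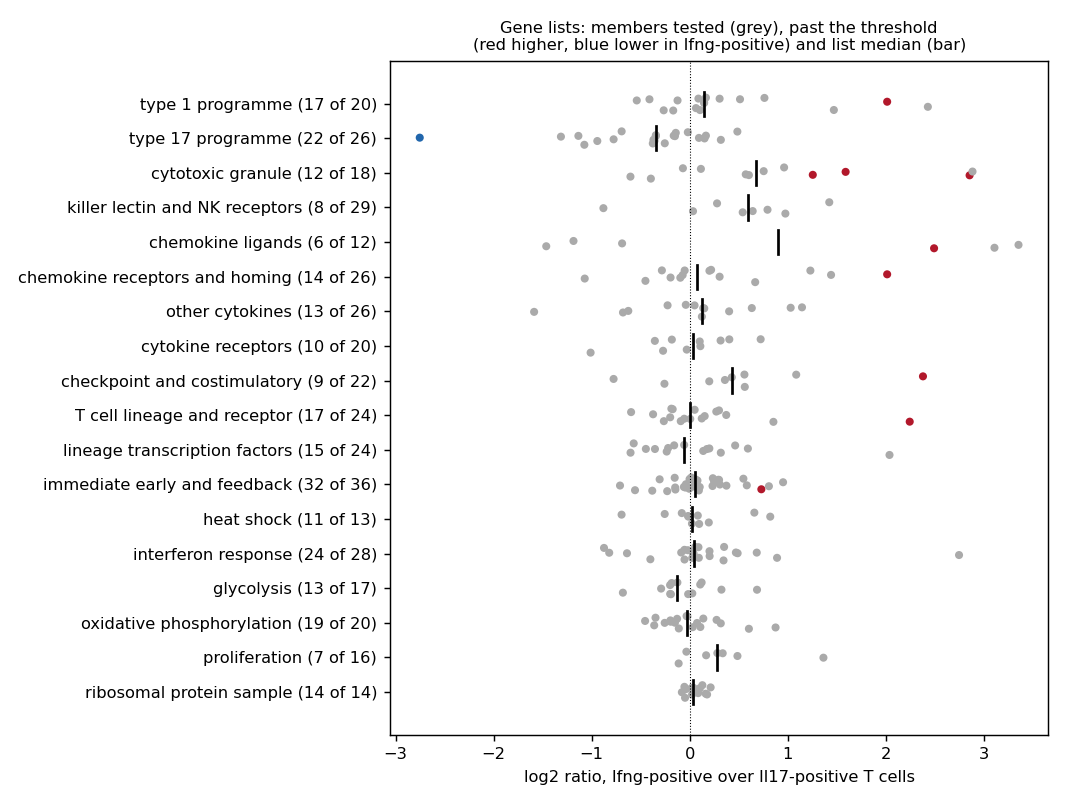
Log2 ratio of Ifng-positive over Il17-positive T cells (horizontal axis) for the tested members of 18 gene lists, with tested and listed numbers in brackets; coloured points passed the threshold and black bars are list medians. The cytotoxic granule list has 3 red points and a median of 0.68, the type 17 list has Cd163l1 as its blue point and a median of -0.34, and most medians lie near 0.

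Of the 16 higher genes, 6 moved with other cells or with 1 replicate. The matrix and complement genes Mgp, Fbln1, C3, Grem1 and Dcn are genes of fibroblasts. Mgp had 167 and 0 UMIs in Ifng-positive cells of replicates 1 and 2, against 3 and 0 in Il17-positive cells, and 98 of the 167 were in 1 cell. C3 had 39 and 0 against 0 and 0, and Grem1 31 and 0 against 0 and 0. The stromal marker list summed to 4365 and 151 CPM in Ifng-positive cells, 2326 and 52.1 CPM in Il17-positive cells and 2643 CPM in cytokine-negative cells of replicate 1, and 0 of its 8 markers were at 0 in Ifng-positive cells of replicate 1, against 1 (Lum) in Il17-positive cells. Over 12 stromal genes, 5 Ifng-positive cells of replicate 1, with a median of 5956 UMIs, held 93.9% of the stromal UMIs of their side, and 2 Il17-positive cells held 88.4% of theirs. Of the 8 stromal markers 6 were tested, with Dcn higher and 0 lower (median 0.85). Cd8a, the other gene of this kind, had 94 and 8 UMIs in Ifng-positive and 3 and 5 in Il17-positive cells; the log2 ratio was 3.29 in the first replicate and 0.10 in the other. The part of these cells in the other calls was not tested beyond leaving them out. Without the T cells that held a UMI of 8 B cell, myeloid, epithelial and stromal markers (Cd79a, Ms4a1, Lyz2, C1qa, Epcam, Krt8, Col1a1 and Col3a1), 2 genes were higher, Ccl5 (2.50, adjusted p = 0.0052) and Plac8, and 0 lower. The ratios of Gzmb (2.37, adjusted p = 0.051), Nkg7 (1.27, adjusted p = 0.091) and Cd163l1 (-2.70, adjusted p = 0.051) were then close to those above. Without cells with a Cd8a or Cd8b1 UMI, 3 genes were higher (Mgp, Nkg7 and Zfp36l2) and 2 lower (Cd163l1 and Jun).

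Each side was also set against the cytokine-negative T cells. Both of these comparisons share the cytokine-negative cells, so their values are given side by side. Ccl5 was not past the threshold in Ifng-positive cells (0.10 ± 0.18, adjusted p = 1) and fell in Il17-positive cells (-2.39 ± 0.29, adjusted p = 0.00012), with 727 and 347 CPM in cytokine-negative cells. Cd7 likewise had 0.45 (adjusted p = 0.96) in Ifng-positive and -1.93 (adjusted p = 0.043) in Il17-positive cells. Nkg7 rose in Ifng-positive cells (0.65 ± 0.16, adjusted p = 0.027) and had -0.61 (adjusted p = 0.46) in Il17-positive cells. The granule genes Gzmb and Ctsw passed in neither comparison. Gzmb had 0.90 (adjusted p = 0.46) in Ifng-positive and -1.96 (adjusted p = 0.26) in Il17-positive cells. Ctsw had 0.29 in Ifng-positive and -1.30 (adjusted p = 0.095) in Il17-positive cells. Cd163l1 fell in Ifng-positive cells (-2.36 ± 0.36, adjusted p = 4.6e-05), with 0.39 (adjusted p = 0.91) in Il17-positive cells.

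The receptor genes Trdv4 and Tcrg-C1, picked after their values were seen, fell in Ifng-positive against cytokine-negative cells. Of the 17 T cell lineage and receptor genes tested, Cd8b1 was higher and Tcrg-C1 lower in this comparison (median -0.03). Of all genes tested 0.456% were higher and 0.12% lower. Trdv4, a variable segment of the delta chain, had 2 and 2 UMIs in Ifng-positive, 4 and 9 in Il17-positive and 101 and 57 in cytokine-negative cells. It fell in Ifng-positive against cytokine-negative cells (-2.91 ± 0.56, adjusted p = 0.0018) and had -0.15 (adjusted p = 0.97) in Il17-positive cells. Tcrg-C1 fell in Ifng-positive cells as well (-0.56 ± 0.14, adjusted p = 0.031), with 0.03 (adjusted p = 0.98) in Il17-positive cells. Between Ifng-positive and Il17-positive cells Trdv4 had a ratio of -2.77 (adjusted p = 0.098), which did not pass. On both cytokine sides cells with Trac and no Trdc held 0 Trdv4 UMIs. They did hold Tcrg-C1: 115 of 158 and 57 of 82 UMIs in Ifng-positive cells, and 54 of 77 and 58 of 90 in Il17-positive cells. Between the sides the Tcrg-C1 ratio was -0.38 and -0.70 in these cells and 0.46 and -0.09 in Trdc cells. The part of the Trdc shares given above in these results was not tested.

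On the other side, Il17-positive cells rose above cytokine-negative cells in Areg, which encodes the tissue repair factor amphiregulin (2.17 ± 0.50, adjusted p = 0.035), at 154 and 89.3 CPM in Il17-positive and 23.1 and 30.8 CPM in cytokine-negative cells. They rose also in the transcription factors Zeb2 (1.85 ± 0.41, adjusted p = 0.011), Nfil3 (0.70 ± 0.17, adjusted p = 0.030) and Jun (0.54 ± 0.12, adjusted p = 0.030) and in Sla (0.67 ± 0.15, adjusted p = 0.015). With counts capped at 3 UMIs per cell and gene, or with at least 2 cytokine UMIs, 0 of the 14 genes higher in Il17-positive than in cytokine-negative cells passed (with the cap 0 of the 7 lower genes did either), and without the 5% of T cells with most UMIs 2 did. Areg passed in 2 of 14 alternatives, Zeb2 in 6 of 14, Nfil3 in 2 of 16, Jun in 8 of 16 and Sla in 3 of 16. In Ifng-positive cells these ratios were 0.59 for Areg, 1.31 for Zeb2 (adjusted p = 0.060), 0.29 for Nfil3, 0.16 for Jun and -0.20 for Sla, and none of these 5 passed. Between the sides the ratio was -1.59 for Areg (adjusted p = 0.34), -0.54 for Zeb2 (adjusted p = 0.82), -0.41 for Nfil3 (adjusted p = 0.56) and -0.38 for Jun (adjusted p = 0.23), and of these 5 genes Sla alone passed. Zfp36, which destabilises cytokine transcripts, rose in Ifng-positive cells (0.74 ± 0.13, adjusted p = 0.0017) and had 0.19 (adjusted p = 0.91) in Il17-positive cells, while between the sides it had 0.55 (adjusted p = 0.094). In all, 19 genes (0.456%) were higher and 5 (0.12%) lower in Ifng-positive than in cytokine-negative cells, and 14 (0.336%) higher and 7 (0.168%) lower in Il17-positive than in cytokine-negative cells. These come to 24 (0.576%) and 21 (0.504%) in either direction. At an unadjusted p under 0.05 they were 135 (3.24%) and 90 (2.16%) for Ifng-positive cells and 138 (3.31%) and 133 (3.19%) for Il17-positive cells. Many of the higher genes were stromal or matrix genes. Among them were Adamdec1, Bgn, Col6a1, Dcn, Dpt, Igfbp3, Igfbp7 and Mgp in Ifng-positive cells and Adamdec1, Bgn, Col6a1, Col6a2 and Igfbp3 in Il17-positive cells. The plasma cell gene Jchain was lower in both comparisons. The totals thus include genes of other cells. Without the T cells that held another cell type's marker, 0 genes were higher in Ifng-positive and 1 in Il17-positive than in cytokine-negative cells.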

How the data were processed

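Single-cell counts of 2 samples were used. Per the file headers, the authors made the deposited UMI counts per cell and gene with BD's Rhapsody WTA pipeline (version 1.8), using recursive substitution error correction and no normalization. The submitters' processing notes also name HISAT2 2.0.5 and Bowtie2, mm10 and GRCm38.p6. The sample tag file gives the authors' tag call per cell, and cells of tags 6 (replicate 1) and 12 (replicate 2) were used. A cell was kept if 300 or more genes were detected and mitochondrial UMIs were no more than 25%, which left 3337 and 3840 cells. Genes listed in only 1 of the tables were set to 0 in the other. The pipeline's multiplets were left out and no doublet caller was run.

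Counts were summed per replicate and side and tested with edgeR 4.0.16 (R 4.3.3): TMM, filterByExpr, robust quasi-likelihood fit over the 3 sides with the replicate as a block (both sides of a replicate are cells of the same sample), 2 residual degrees of freedom, Benjamini-Hochberg at 0.05 over 4165 genes. The block takes out the difference in level between the replicates. The p-values then rest on counting noise and on how the differences between sides vary from 1 replicate to the other. The fit draws the spread of each gene towards that of all genes. Genes with almost all UMIs in replicate 1 can therefore pass, as Mgp, Fbln1, C3 and Grem1 did. Since labels do not say that the replicates are separate animals, the spread between replicates may be technical. Splitting cells by a transcript also selects on depth and free RNA. Standard errors come from each ratio and its F statistic. Ratios of single replicates use a prior count of 2. Fibroblast-like cells held at least 3 UMIs of fibroblast genes and no Ptprc or CD3 UMI. Named genes were up to 12 per direction with the largest ratio past the threshold, the same sign in both replicates and at least 10 UMIs in both replicates of the higher side, then the next by p, plus list members. Other genes named, the 6 with stromal or 1-replicate values among them, were chosen after their values were seen. The members and the 23 lists (429 genes, 423 found) were chosen with earlier results of these data known. Alternatives were DESeq2 1.42.0, other scaling, filters, thresholds and cell sets, and the test was tried on simulated data. Positions come from GENCODE M21 by symbol. Some genes are not reported here.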

Additional observations from a re-analysis of the deposited data

Results flagged for a closer look

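Cytokine transcripts appeared in cells that the comparison does not use. Among kept cells without a CD3 UMI, Ifng was seen in 4.07% of replicate 1 (89 of 2188) and 4.19% of replicate 2 (114 of 2723), and Il17a or Il17f in 5.71% (125) and 5.77% (157). A count of 0 would allow shares of up to 0.137% and 0.110%. A Trac UMI was in 7.40% and 9.70% of the same cells. These cells were sorted as ILC3s.

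Tbx21 had ratios of opposite sign in the T cell lineages. Its mean log2 ratio of Ifng-positive over Il17-positive cells was 0.51 among cells with Trac and no Trdc (0.97 and 0.05 in replicates 1 and 2), while among Trdc cells it was -0.29 and -1.25. The Trdc ratios rest on 1 and 0 UMIs in Ifng-positive and 1 and 1 in Il17-positive cells, and the difference was not tested.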

How the results depend on the processing

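Without the replicate block edgeR called 0 genes higher and 0 lower in each of the 3 comparisons, with 92 higher and 58 lower at an unadjusted p under 0.05 in Ifng-positive against Il17-positive cells (16 and 3 past the adjusted threshold with the block, DESeq2 2 and 0). DESeq2 called 0 and 0 in Ifng-positive against cytokine-negative cells (25 and 7 unadjusted) and 0 and 1 in Il17-positive against cytokine-negative cells (46 and 28).

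For Ifng-positive over Il17-positive cells, the counts of higher genes were 28 with no low-count filter, 3 with the stricter cell filter, 4 with cells thinned to 1000 UMIs, 9 with at least 2 cytokine UMIs, 4 in Trac cells without Trdc, 8 in Trdc cells, 2 without cells with another cell type's marker, 3 without Cd8a or Cd8b1 cells and 5 with counts capped at 3 UMIs per cell and gene. Lower genes numbered 7 with only the sums of these sides in the fit and 0 without cells with another cell type's marker. The settings without Cd8a or Cd8b1 cells and with the cap were chosen after seeing the data.

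For Ifng-positive over cytokine-negative cells (19 and 5), higher and lower genes were 3 and 1 with the stricter filter, 3 and 1 thinned, 2 and 3 with at least 2 cytokine UMIs, 5 and 0 in Trac cells, 4 and 2 without the 5% of T cells with most UMIs, 0 and 0 without cells with another marker, 1 and 1 without CD8 cells and 1 and 3 capped. There were 2 higher in Trdc cells and 9 lower with no filter. For Il17-positive over cytokine-negative cells (14 and 7) they were 5 and 4 with the stricter filter, 2 and 2 thinned, 0 and 11 with at least 2 cytokine UMIs, 7 and 2 in Trac cells, 2 and 2 without the top 5%, 1 and 1 without cells with another marker, 6 and 4 without CD8 cells and 0 and 0 capped. There were 2 higher in Trdc cells, 26 lower with no filter and 11 lower with at least 2 CD3 UMIs. Cell sets with fewer cells also had fewer UMIs and genes tested; otherwise the cause was not tested.

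Of the alternatives that gave an adjusted p, Ccl5 passed in 13 of 17, Cd163l1 in 12 of 16, Nkg7 in 11 of 17, Gzmb in 8 of 17, Ctsw in 8 of 16, Cd7 in 7 of 16, Sla in 7 of 17, Rhob in 6 of 16, Zfp36l2 in 6 of 17, Ms4a4b in 3 of 16, Gimap4 in 2 of 17 and Dad1 in 1 of 17. None of these 12 changed sign in any of them. Of other genes that did not pass between the sides, Cd28 passed in 2 of 16, Zfp36 and Jun in 2 of 17, Areg in 1 of 15 and Tcrg-C1 in 1 of 17. Against cytokine-negative cells, Cd163l1 passed in 10 of 15, Zfp36 in 8 of 16, Trdv4 in 7 of 12, Tcrg-C1 in 6 of 16 and Nkg7 in 5 of 16 for Ifng-positive cells, and Ccl5 in 12 of 16 and Cd7 in 5 of 16 for Il17-positive cells. Signs turned in Tcrg-C1 in Trdc cells (0.11), Dcn when capped (-0.015), Il22 in Trdc cells (0.58), Cd4 with at least 2 cytokine UMIs (-0.58), without the top 5% (-0.12) and without cells with another marker (-0.25), and Csf2 with the stricter filter (0.19) and at least 2 cytokine UMIs (0.16). Between the sides the sign of Areg turned in 1 of 15 alternatives. In Ifng-positive against cytokine-negative cells that of Dcn turned in 1 of 14 and that of Jchain in 1 of 10. Leaving out a replicate leaves no residual degrees of freedom, so it gives values without a test and no counts: Tbx21 ranged from -0.22 to 0.70, Il22 from -1.25 to 0.0097 and Cd4 from -0.32 to 0.85. With 1 cytokine UMI in most cells, cells without such a UMI may still express the cytokine, and depth limits what could be called for Tbx21.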

Other observations

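B cell and plasma cell markers differed in single cells. The list of 10 markers summed to 1084 and 2261 CPM in Ifng-positive cells of replicates 1 and 2 and to 709 and 74.4 CPM in Il17-positive cells. In Ifng-positive cells of replicate 2, 439 of the 449 UMIs were in 1 cell, and 7 of the 10 markers, Cd79a and Ms4a1 among them, were at 0. Myeloid markers had 8 and 3 UMIs in Ifng-positive and 0 and 4 in Il17-positive cells, and epithelial markers 7 and 3 and 0 and 2. The ILC marker list stood at 466 and 368 CPM in Ifng-positive, 454 and 491 CPM in Il17-positive and 417 and 468 CPM in cytokine-negative cells. Of these lists 4 of 9 ILC markers (median log2 ratio -0.35) and 3 of 10 B and plasma cell markers (0.84) could be tested and 0 passed in either direction, and 0 myeloid and 0 epithelial markers were above the filter.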
